A study of Rattus norvegicus with 8 samples.

Results

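The genes that oxidize fatty acids in mitochondria and peroxisomes were examined in the kidney of rats fed a high-phosphorus (HP) diet or a control diet. They were chosen by name, as 46 genes of the pathway, and every probe set whose platform symbol was exactly 1 of these names was used. Of the 46 genes, 45 had 63 probe sets of their own among the 31099 of the array, and 13 genes had several. The remaining gene, Acaa1a (the peroxisomal thiolase), was covered only by a probe set shared with Acaa1b and was not analysed here. By the known site of their proteins, 28 probe sets (20 genes) were mitochondrial, 15 (10 genes) were peroxisomal and 3 (3 genes) belonged to both organelles. The other 17 (12 genes) were placed elsewhere in the cell, among them Acsl5, whose protein is in part mitochondrial.

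Kidney RNA was hybridized to 8 Affymetrix rat arrays, with 1 rat per array. Of these male Wistar rats, labelled as 8 weeks old, 4 received the control diet (AIN-93G, 0.3% phosphorus) and 4 received the HP diet (1.2% phosphorus) for 24 days. The extra phosphorus was given as a potassium salt, so that phosphorus and potassium cannot be told apart. The animals on the arrays were picked by the authors as average ones of each group, and the spread between arrays is that of picked animals.

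Fatty acids enter cells through carriers, are joined to coenzyme A by acyl-CoA synthetases, and cross the inner mitochondrial membrane as carnitine esters. In the matrix, acyl-CoA dehydrogenases pass electrons to the electron transfer flavoprotein, and a hydratase, a hydroxyacyl-CoA dehydrogenase and a thiolase complete each turn of the spiral. Peroxisomes shorten very long and branched chains with enzymes of their own, and the nuclear receptor Ppara with the coactivator Ppargc1a switches on many of these genes. The proximal tubule of the kidney is known for its reliance on this pathway for energy.

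The arrays were summarized by the distribution free weighted method (DFW) as log values, and the arrays lie very close together within each probe set. The median SD within groups over all probe sets was 2.22 millionths of a log unit, so that a difference is no fold change. Each difference is HP minus control in millionths, with its standard error (SE) over 4 arrays per group. Dividing a difference by the SD pooled over both groups gives the standardized difference. A probe set was called where the adjusted p (Benjamini-Hochberg over 31042 probe sets, by limma) was under 0.05. The number of arrays limits the precision, and with 4 against 4 the smallest exact permutation p is 0.0286 (two-sided, 70 arrangements).

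In the values as deposited, the acyl-CoA synthetases Acsl4 and Acsl5 were upregulated in HP rats, and no probe set of the pathway passed the threshold downwards. In all, 2 of 63 probe sets (3.17%) were called higher, against 2.95% of all probe sets. The count lower was 0, against 1.13% of all probe sets. At an unadjusted p under 0.05 by limma, 18 of 63 (28.6%) were lower, against 9.45% of all probe sets, and 4 (6.35%) were higher, against 9.53%. By rank products, the method of the study run anew here, 2 were higher and 5 were lower at a false discovery rate (FDR) under 0.05. Over all probe sets the shares were 3.39% and 2.31%. The 2 higher were Acsl4 and Acsl5 1386926_at, while limma called Acsl4 and Acsl5 1397375_at.

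Below the threshold, most differences of the pathway were negative. The difference was below 0 in 49 of 63 probe sets (77.8%), against 57.7% of all probe sets, and the median standardized difference was -1.07, against -0.21 over all. All 4 HP arrays lay below all 4 control arrays in 12 of 63 (19.0%), against 5.81% of all probe sets, and above them in 3 (4.76%), against 7.09%. The 12 were Acadm, Acadvl, Etfa, Etfb, Acaa2, both probe sets of Hadh, Crat, Amacr, Hsd17b4, Scp2 and Acot12, of which Acaa2 and Scp2 each had a further probe set with overlapping groups. The 3 were Acsl4 and both probe sets of Acsl5. In a whole kidney, fewer cells of a type and less RNA per cell cannot be told apart.

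Some of these signs rest on the scaling of the arrays. DFW values differ so little that quantile normalization left 32 of the 63 probe sets, Acsl4 among them, equal on all arrays (within 1e-09) and moved the others by steps between ranks. Of the 31 left, 27 were below 0 (87.1%), against 84.2% of the 19903 probe sets that still varied. Of these 31, 20 were called lower and 1 (Acadl) higher, against 50.3% and 2.46% of the 19903. Both probe sets of Acsl5 turned to negative differences (-489.9 millionths at 1397375_at and -692.0 at 1386926_at). Centring each array on its median, where the medians spanned 185.0 millionths, put 97.3% of all probe sets and 61 of 63 members below 0 and gave -43.1 millionths at Acsl5 1397375_at. It called 0 members, against 0.251% of all probe sets higher and 0.0612% lower. With only the median deviation of each array removed, at most 0.370 millionths, the calls of Acsl4 and Acsl5 held (2 of 63 higher and 0 lower, against 2.99% and 1.02% of all probe sets), and 49 of 63 members were below 0 (77.8%), against 52.5% of all probe sets. This last setting was chosen after seeing the data.

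**Figure D1:**
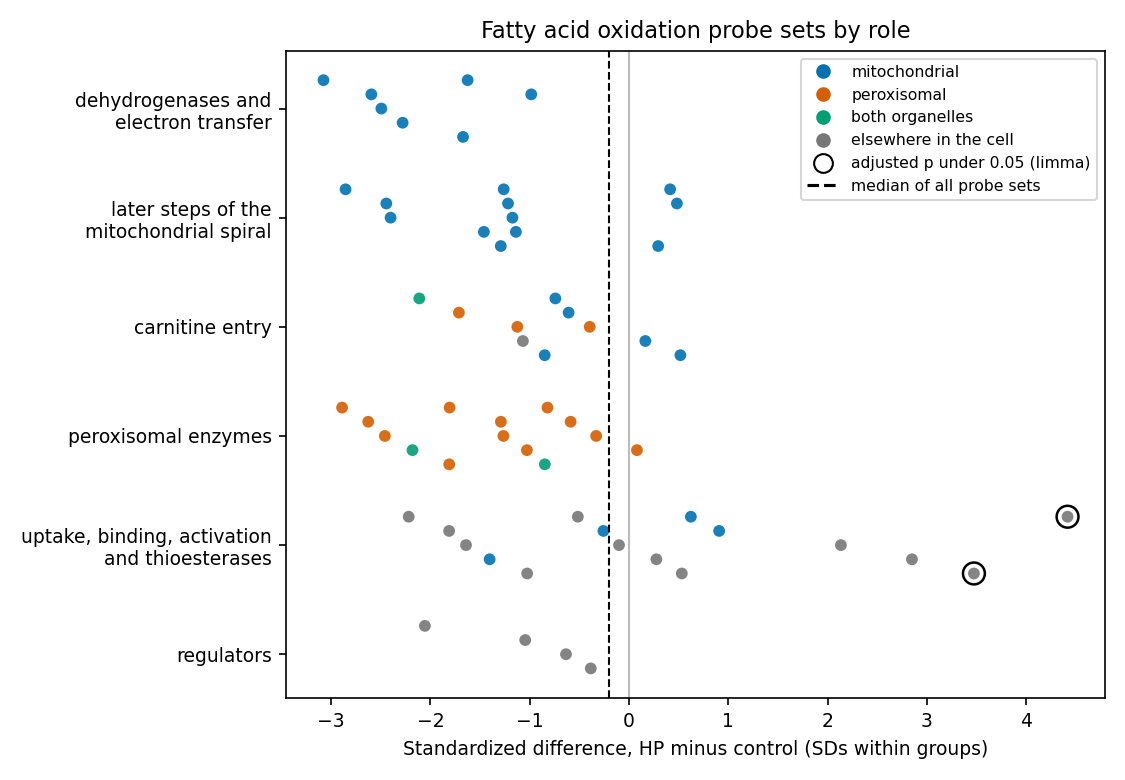
Standardized difference (HP minus control, in SDs within groups) of each of the 63 probe sets, by role on the vertical axis and coloured by site in the cell. Rings mark the 2 probe sets with an adjusted p under 0.05, the dashed line is the median of all probe sets (-0.21), and all 7 dehydrogenase and electron transfer probe sets lie to the left of it.

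The promoters of 5 members, chosen by hand, are shown as examples. Acsl4 and Acsl5 were called higher, and Etfb, Acadvl and Amacr had negative differences that did not pass limma. Each line gives the 250 bases before the start of the gene from RefSeq (build GRCr8), read along the gene. Capitals mark AGGTCA on either strand, the core motif to which Ppara and its partner receptors bind as a pair. The stretches lie at chrX:110803262-110803511, minus strand (Acsl4), chr1:264294601-264294850, plus strand (Acsl5), chr1:102988249-102988498, plus strand (Etfb), chr10:55236706-55236955, minus strand (Acadvl) and chr2:61673085-61673334, plus strand (Amacr).
Acsl4: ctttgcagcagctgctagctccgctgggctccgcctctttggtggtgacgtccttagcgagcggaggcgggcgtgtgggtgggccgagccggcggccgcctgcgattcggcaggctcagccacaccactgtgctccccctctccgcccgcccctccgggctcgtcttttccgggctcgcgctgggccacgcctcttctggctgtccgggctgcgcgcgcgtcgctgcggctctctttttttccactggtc
Acsl5: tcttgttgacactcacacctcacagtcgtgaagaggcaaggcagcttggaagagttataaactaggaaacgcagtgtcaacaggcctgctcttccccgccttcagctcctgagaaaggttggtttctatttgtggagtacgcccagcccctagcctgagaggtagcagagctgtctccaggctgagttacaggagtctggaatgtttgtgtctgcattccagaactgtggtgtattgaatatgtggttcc
Etfb: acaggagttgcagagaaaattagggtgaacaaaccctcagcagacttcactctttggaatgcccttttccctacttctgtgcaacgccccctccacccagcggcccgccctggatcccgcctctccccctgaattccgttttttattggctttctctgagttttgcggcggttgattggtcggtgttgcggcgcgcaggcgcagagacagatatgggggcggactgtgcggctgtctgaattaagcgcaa
Acadvl: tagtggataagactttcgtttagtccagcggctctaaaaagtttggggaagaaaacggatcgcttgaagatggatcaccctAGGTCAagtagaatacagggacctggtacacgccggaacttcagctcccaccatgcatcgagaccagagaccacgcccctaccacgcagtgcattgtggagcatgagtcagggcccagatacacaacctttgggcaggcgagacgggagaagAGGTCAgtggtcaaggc
Amacr: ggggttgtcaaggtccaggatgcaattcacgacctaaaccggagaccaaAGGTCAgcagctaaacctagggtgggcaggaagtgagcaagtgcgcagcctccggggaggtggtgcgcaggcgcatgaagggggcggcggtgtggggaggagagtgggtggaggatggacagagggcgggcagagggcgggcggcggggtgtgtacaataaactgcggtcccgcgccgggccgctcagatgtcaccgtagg

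Acadvl carried the motif at 169 and at 17 bases before its start, and Amacr carried it at 201 bases before. The letters AGGTCA were not in the windows of Acsl4, Acsl5 and Etfb. RefSeq gave a promoter for 42 of the 46 genes, from 250 bases before to 50 bases after the start, and 9 of these held AGGTCA on either strand (21.4%), against 16.2% of 33469 rat promoters. The 9 were Acadvl, Acot12, Amacr, Echs1, Eci1, Eci2, Fabp1, Hadhb and Hsd17b4. Of the members with a probe set lower on every HP array, Acadvl, Acot12, Amacr and Hsd17b4 were thus among the 9. Acadm, Etfa, Etfb, Hadh, Crat and Scp2 had a window without the motif. A link between the motif and the direction of the differences was not tested. Of all rat promoters, 18 held a pair of these motifs 1 base apart on the same strand, and none of them belonged to the 42. GGGCGG, the GC box, was in 28 of 42 (66.7%) on either strand, against 33.1% of all promoters. Hadha and Hadhb, which encode the subunits of the trifunctional protein, are read in opposite directions, and their windows share 200 bases.

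Among the genes of uptake, binding and activation, Acsl4, a synthetase that prefers arachidonate, was upregulated in the values as deposited. On the control arrays 1 to 4 its probe set 1387101_at lay 27.6, -5.96, -30.6 and 8.98 millionths from the control mean, and on the HP arrays 1 to 4 it lay 88.5, 67.7, 54.3 and 68.1 millionths above it. The lowest HP array was thus above the highest control array. The difference was 69.6 millionths (SE 14.2), a standardized difference of 3.47 with an adjusted p of 0.041 by limma, and the FDR by rank products was 0.0138. The call held without control replicate 1 and was lost without any of the other 7 arrays, with an adjusted p by limma of up to 0.103. Under median centring the difference of Acsl4 was 8.60 millionths with an adjusted p of 0.993 by limma. Quantile normalization left it equal on all arrays.

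Acsl5, a long-chain synthetase of mitochondria and the endoplasmic reticulum, was upregulated at 1 of its 2 probe sets in the values as deposited, with the opposite sign under quantile normalization and median centring. Probe set 1397375_at lay 0.501, 5.78, -4.58 and -1.70 millionths from the control mean on the control arrays, and 18.4, 22.6, 13.6 and 17.1 millionths above it on the HP arrays. The difference was 17.9 millionths (SE 2.87), a standardized difference of 4.42 with an adjusted p of 0.0227 by limma. The groups did not overlap, and the call held without control replicate 2, HP replicate 2 or HP replicate 3. Without another array the adjusted p by limma rose to at most 0.0644. Rank products did not call this probe set (FDR 0.116).

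The other probe set of Acsl5, 1386926_at, was higher on every HP array without passing limma. It lay -5.58, 20.9, 11.2 and -26.5 millionths from the control mean on the control arrays, and 68.4, 102.7, 52.4 and 44.1 millionths above it on the HP arrays. Here too the groups did not overlap. The difference was 66.9 millionths (SE 16.6), a standardized difference of 2.85 with an adjusted p of 0.0713 by limma, and rank products called it with an FDR of 0.016.

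**Figure D2:**
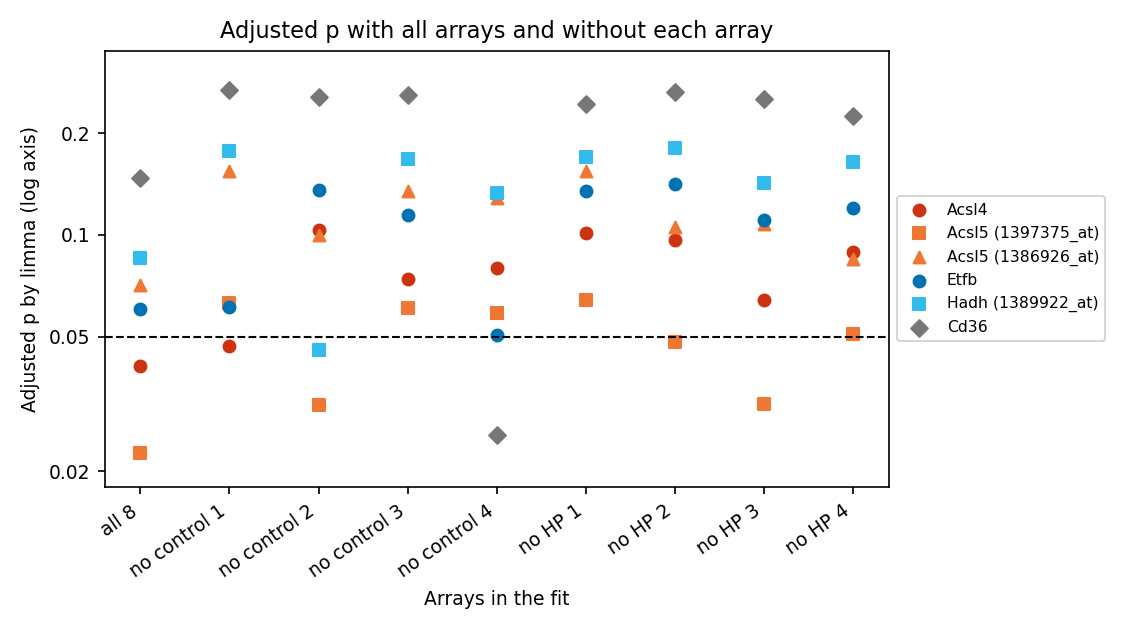
Adjusted p by limma (log axis) of 6 probe sets with all 8 arrays and without each array in turn, with the threshold of 0.05 as a dashed line. Acsl4 is under the line with all arrays and without control replicate 1, and Acsl5 (1397375_at) with all arrays and without 3 of the 8.

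The other genes of this role went both ways. Cd36, a fatty acid carrier of the plasma membrane, differed by 8.92 millionths (SE 2.96), a standardized difference of 2.13 with an adjusted p of 0.147 by limma. Control replicate 4, at 8.05 millionths, lay among the HP arrays at 7.95 to 10.3, and without it the adjusted p by limma was 0.0255. Its sign was the opposite under median centring (-52.1 millionths) and under quantile normalization (-507.9), which called it lower with an adjusted p of 0.039 by limma. Acot12, which cleaves acetyl-CoA in the cytosol, differed by -39.4 millionths (SE 15.4) with an adjusted p of 0.207 by limma, and rank products called it lower with an FDR of 0.0286. Its HP arrays, from -70.2 to -14.4 millionths, lay below all control arrays, of which the lowest was at -11.7.

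Fabp3, a fatty acid binding protein of heart and muscle, had a standardized difference of -1.64. Acsl1, the main synthetase of oxidative tissues, had values of -0.52, -1.03 and -2.22 at its 3 probe sets. The remaining standardized differences of the role were -1.40 for Acsm2 (medium-chain synthetase), -0.10 for Acot1 and 0.62 for Acot2 (thioesterases, the latter with further values of -0.26 and 0.91), 0.28 for Acsl3, and 0.53 for Fabp1, the liver-type binding protein. None of these passed. Over the 16 probe sets of the role, 8 were below 0 and the median standardized difference was 0.088.

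The carnitine step showed no call in either direction. Crat, the carnitine acetyltransferase of both organelles, had the smallest p of the role. It lay -3.06, 1.76, 3.76 and -2.46 millionths from the control mean on the control arrays and at -10.6, -16.2, -4.86 and -5.49 on the HP arrays. All HP arrays were below all control arrays, with a difference of -9.29 millionths (SE 3.11), which is -2.11 when standardized (adjusted p 0.151 by limma).

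Cpt1a, whose protein sets the pace of carnitine entry, had standardized differences of 0.16 and -0.61 at its 2 probe sets, and Cpt1b, the muscle form, had 0.52. The values were -0.74 for Cpt2 and -0.85 for Slc25a20, which follow Cpt1a at the inner membrane, and -1.07 for Slc22a5, the carnitine importer of the plasma membrane. Crot, the peroxisomal octanoyltransferase, had -0.40, -1.71 and -1.12 at 3 probe sets. In this role 8 of 10 probe sets were below 0, with a median of -0.80.

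The acyl-CoA dehydrogenases and the genes that carry their electrons all lay on the same side in the values as deposited. All 7 probe sets (7 genes) were below 0, and the median standardized difference was -2.28. Of the 7, 6 had an unadjusted p under 0.05 by limma, against 9.45% of all probe sets, and 4 had all HP arrays below all control arrays, against 5.81%. None of them was called as deposited with all probe sets in the fit. Under quantile normalization only 2 of the 7 still varied. Acadl was then called higher (287.8 millionths, adjusted p 0.039 by limma) and Acadvl lower (-278.7 millionths, 0.000955). Of all probe sets that still varied, 2.46% were called higher and 50.3% lower. Etfb, the beta subunit of the electron transfer flavoprotein, lay 4.08, 0.453, -1.31 and -3.23 millionths from the control mean on the control arrays. On the HP arrays it lay at -6.81, -7.96, -6.25 and -6.76, which is below every control array and closer together than the controls. The difference was -6.94 millionths (SE 1.60), a standardized difference of -3.08 with an adjusted p of 0.0604 by limma. With 1 probe set per gene, the adjusted p of Etfb by limma was 0.0441. Of the 45 members it was then the 1 called lower and Acsl4 the 1 called higher, against 1.91% and 5.61% of all genes.

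Etfa, the alpha subunit, had a standardized difference of -2.49, with control arrays between -0.775 and 1.28 millionths and HP arrays between -2.82 and -1.34. Acadm, the medium-chain dehydrogenase, had -2.59, with control arrays between -3.19 and 3.61 millionths and HP arrays between -10.1 and -4.59. Acadvl, for very long chains, had -2.28, with control arrays between -2.96 and 5.28 millionths and HP arrays between -14.5 and -5.47. In these 3 genes the groups did not overlap. They overlapped in Acads (short chains, -1.62), Acadl (long chains, -0.98) and Etfdh (the step to ubiquinone, -1.67).

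**Figure D3:**
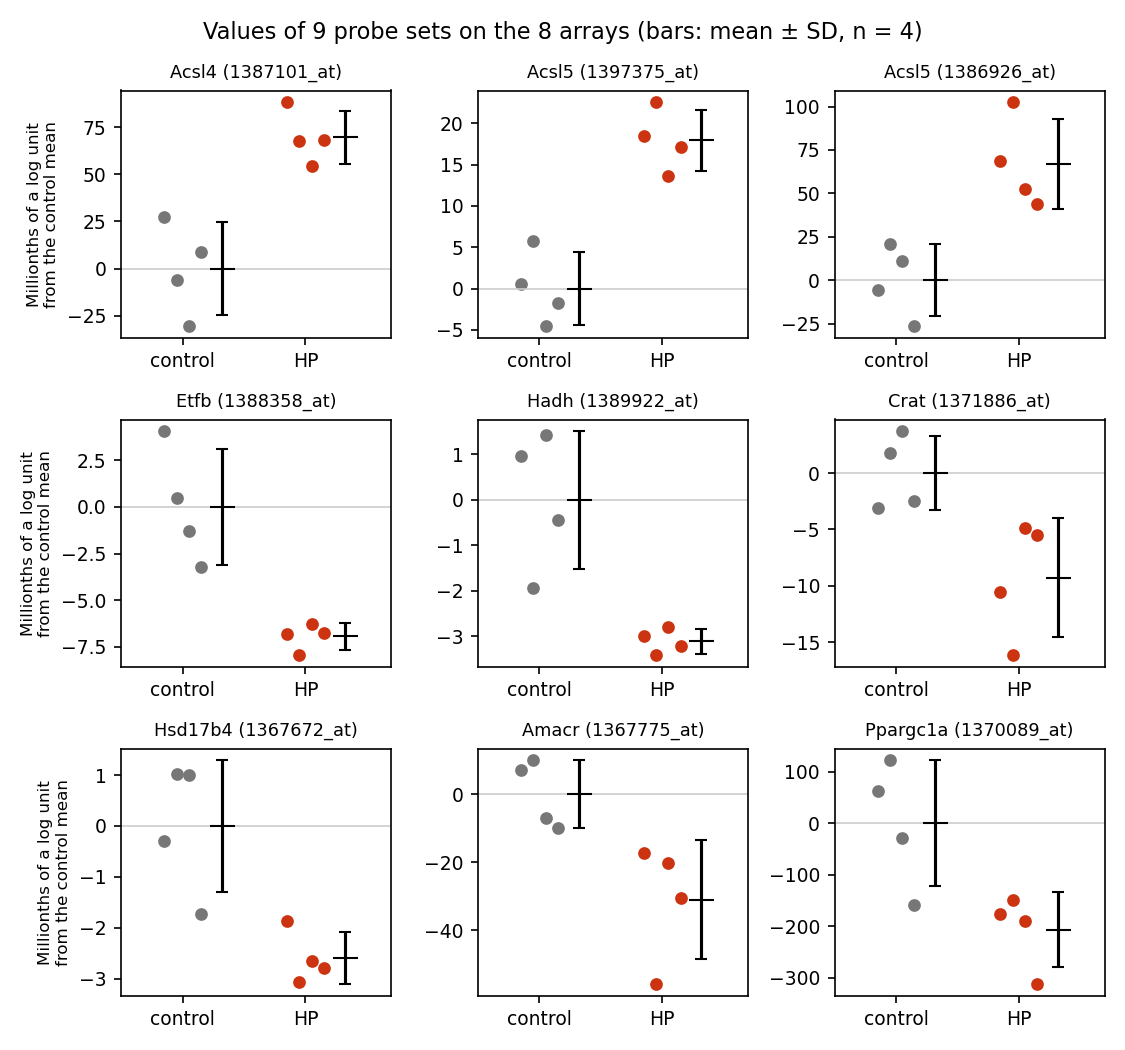
Values of 9 probe sets on the 8 arrays, in millionths of a log unit from the control mean (vertical axes differ between panels), with points for arrays and bars for the mean and SD of each group (n = 4). The groups do not overlap in 8 of the 9, and in Ppargc1a control replicate 4 (-157.9) lies below HP replicate 2 (-149.4). Apart from Amacr, the panels show called members, the other Acsl5 probe set and the smallest p of each further role. This choice favours groups without overlap. Of all 63 probe sets, 12 had all HP arrays below all control arrays and 3 above, against 5.81% and 7.09% of all probe sets.

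The later steps of the mitochondrial spiral split between enzymes. Hadh, the hydroxyacyl-CoA dehydrogenase for shorter chains, was lower on every HP array at both of its probe sets. Probe set 1389922_at lay 0.968, -1.93, 1.42 and -0.453 millionths from the control mean on the control arrays and at -3.00, -3.42, -2.79 and -3.22 on the HP arrays. The difference was -3.10 millionths (SE 0.769), a standardized difference of -2.85 with an adjusted p of 0.0854 by limma. It passed without control replicate 2, with an adjusted p by limma of 0.0457. The other probe set, 1370237_at, had a standardized difference of -2.44.

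Acaa2, the mitochondrial thiolase, was called lower by rank products (FDR 0.00423) but not by limma (standardized difference -2.40, adjusted p 0.112). Its control arrays lay at 16.3, 10.1, 9.30 and -35.7 millionths, and its HP arrays at -44.8, -115.1, -70.7 and -45.9. Control replicate 4 was thus nearest to the HP arrays. The second probe set of Acaa2 had a standardized difference of -1.14. For the 2 subunits of the trifunctional protein, which handles long chains, Hadhb had 0.29, and Hadha had -1.17 at its brightest probe set and 0.41 and 0.48 at the dimmer ones. The other values were -1.46 for Decr1 (a reductase for unsaturated chains), -1.22 for Echs1 (the hydratase), and -1.29 and -1.26 for Eci1 (an isomerase). Of the 12 probe sets of this role, 9 were below 0, with a median of -1.24.

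Of the 14 probe sets of the peroxisomal enzymes, 13 were below 0, with a median standardized difference of -1.28, and none was called by limma. Hsd17b4, the D-bifunctional enzyme, lay -0.298, 1.01, 1.00 and -1.72 millionths from the control mean on the control arrays and at -1.87, -3.07, -2.66 and -2.79 on the HP arrays. The groups did not overlap, although HP replicate 1 was close to control replicate 4. The difference was -2.60 millionths (SE 0.699), a standardized difference of -2.63 with an adjusted p of 0.108 by limma. Scp2, a thiolase of branched chains, had -2.89 and -2.46 at its 2 probe sets.

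Amacr, the racemase that prepares branched chains, was called lower by rank products (FDR 0.0286). It lay 6.91, 10.1, -7.02 and -9.96 millionths from the control mean on the control arrays and at -17.4, -55.9, -20.4 and -30.4 on the HP arrays. All HP arrays were below all control arrays, and HP replicate 2 was far below the others. By limma the difference was -31.0 millionths (SE 10.1), a standardized difference of -2.18 with an adjusted p of 0.140.

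Pecr, the peroxisomal enoyl-CoA reductase, was also called lower by rank products (FDR 0.031). It lay -65.4, 69.7, 44.5 and -48.9 millionths from the control mean on the control arrays and at -51.8, -49.4, -75.4 and -73.3 on the HP arrays. Here the groups overlapped, since control replicate 1 lay among the HP arrays and control replicate 4 just above them. The standardized difference was -1.29, with an adjusted p of 0.361 by limma.

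Decr2, the peroxisomal dienoyl-CoA reductase, was called by neither method here, although the study lists it under its enriched terms. It lay -1.30, -5.75, 8.83 and -1.78 millionths from the control mean on the control arrays and at -5.41, -39.2, -16.9 and -17.4 on the HP arrays, so that HP replicate 1 was among the controls. The standardized difference was -1.81, with an adjusted p of 0.207 by limma and an FDR of 0.106 by the rank products run here. Among the others, Ehhadh (the L-bifunctional enzyme) had -0.82, Acox3 and Acox2 (oxidases of branched chains) had -1.26 and -0.33, and Eci2 (an isomerase of both organelles) had -0.85. Phyh, which starts the removal of phytanic acid, had 0.080 and -1.81, and Pex11a, a peroxin of peroxisome division, had -0.59 and -1.03.

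Of the regulators, Ppargc1a had 3 probe sets and Ppara had 1, and all 4 were below 0 with no call by limma. Ppargc1a 1370089_at lay 63.3, 123.4, -28.8 and -157.9 millionths from the control mean on the control arrays and at -176.2, -149.4, -188.9 and -312.9 on the HP arrays. Control replicate 4 lay among the HP arrays, and the controls were more spread than the HP arrays. The difference of -206.8 millionths (SE 71.2) was the largest of the 63 in size in the values as deposited, and under quantile normalization it was 95.7. As deposited it had a standardized difference of -2.05, an adjusted p of 0.159 by limma and an FDR of 0.00068 by rank products. The other probe sets of Ppargc1a had standardized differences of -0.63 and -1.04, and Ppara had -0.38.

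Mitochondrial and peroxisomal members were set side by side without a test, because the genes were chosen with results of these arrays known. The difference was below 0 in 21 of 28 mitochondrial probe sets (75.0%) and in 14 of 15 peroxisomal ones (93.3%), against 57.7% of all probe sets. The median standardized differences were similar, -1.20 and -1.26. With only the brightest probe set of each gene they were -1.35 and -1.04, with 16 of 20 and 9 of 10 genes below 0. No overlap between groups, with HP lower, was seen in 7 of 28 mitochondrial and 2 of 15 peroxisomal probe sets, against 5.81% of all probe sets. All 3 genes of both organelles (Crat, Eci2, Amacr) were below 0, with a median of -2.11. Of the 17 probe sets placed elsewhere, 11 were below 0, with a median of -0.52. Acsl5, in part mitochondrial and higher on every HP array, was counted there and not among the mitochondrial members.

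The arrays of a group did not contribute alike. HP replicate 2 was the lowest of the 8 arrays in 28 of 63 probe sets, and control replicate 1 was the highest in 29. For the mitochondrial probe sets, the median over probe sets of the deviation from the mean of all 8 arrays was 1.59, 0.71, 0.24 and -0.17 SDs on control arrays 1 to 4, and -0.39, -1.37, -0.34 and -0.20 on HP arrays 1 to 4. For the peroxisomal probe sets it was 1.16, 0.91, 0.77 and 0.49 on the control arrays and -0.45, -0.72, -0.65 and -0.69 on the HP arrays. The peroxisomal medians of the 2 diets were thus apart on every array, while the mitochondrial medians of control replicate 4 and HP replicate 4 nearly met. Over all probe sets the median stayed between -0.21 and 0.14 SDs on every array.

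With these 2 arrays left out, a choice made after their values were seen, 41 of 63 probe sets were below 0 (65.1%), against 57.9% of all probe sets, and the median standardized difference was -0.66. Neither Acsl4 nor Acsl5 then passed limma, with an adjusted p of at most 0.113, and 0 members were called higher, against 0.725% of all probe sets. The dehydrogenase and electron transfer genes were still all below 0, 7 of 7, with a median of -2.31, and 3 of the 7 had an unadjusted p under 0.05 by limma, against 7.31% of all probe sets.

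**Figure D4:**
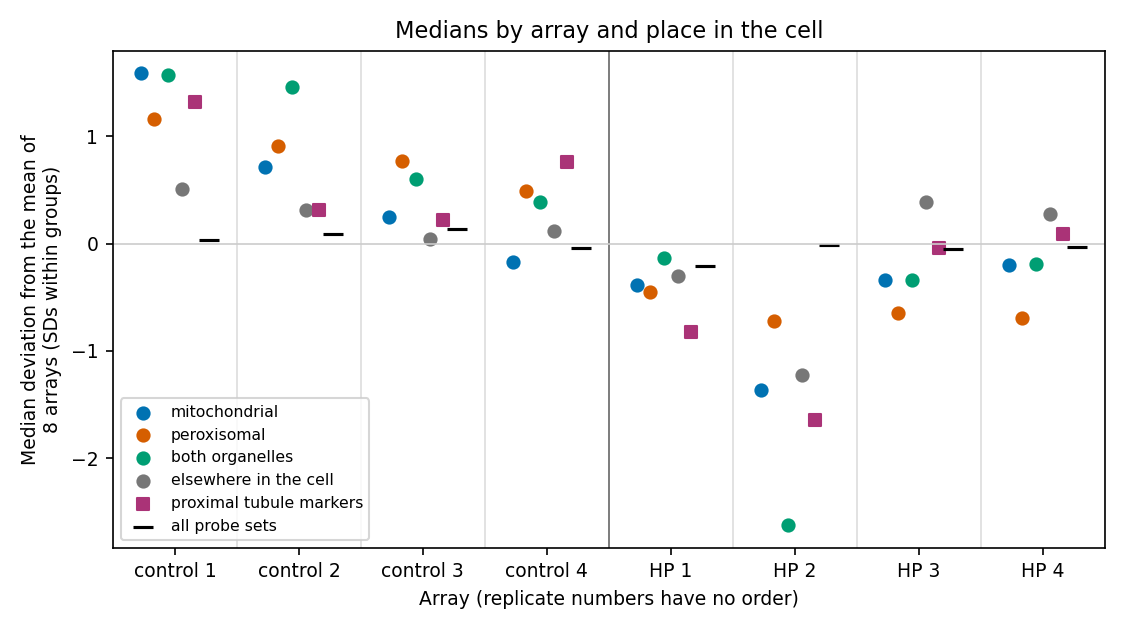
Median deviation from the mean of the 8 arrays (in SDs within groups) of the members at each site in the cell, of 19 proximal tubule markers and of all probe sets, for each array. The mitochondrial median is highest on control replicate 1 (1.59) and lowest on HP replicate 2 (-1.37), where the proximal tubule markers are also highest (1.32) and lowest (-1.64).

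Related genes, some of them outside fatty acid oxidation, were entered with 1 probe set each. Over all probe sets 1.13% were called lower and 2.95% higher. In the fit with 1 probe set per gene, 1.91% were called lower and 5.61% higher. Of 14 further peroxisomal enzymes, Slc27a2, which activates very long chains, was lower (standardized difference -3.55, adjusted p 0.0389 by limma). This call was lost without any 1 of the 8 arrays, with an adjusted p by limma of up to 0.0969. In the same list Hao1, a peroxisomal glycolate oxidase, was higher (3.53, adjusted p 0.0392 by limma), with the opposite sign under quantile normalization, and the call held without HP replicate 3 and was lost without any other array (up to 0.107). In this list 13 of 14 were below 0, with a median of -1.51. Of 22 further mitochondrial acyl-CoA enzymes, the thioesterase Acot13 was lower (-4.49, adjusted p 0.0221 by limma), a call that held without control replicate 2, control replicate 3 or HP replicate 3 and was lost without any other array (up to 0.0634). In this list 18 were below 0 and the median was -1.20. Of 18 genes of peroxisome biogenesis and transport, Pex10, a ligase of the import machinery, and Pxmp2, a membrane channel, were lower (-4.41 and -3.68, adjusted p 0.0266 and 0.036 by limma), with 14 below 0 and a median of -0.53. The call of Pex10 held without control replicate 4, HP replicate 2 or HP replicate 3, and that of Pxmp2 without control replicate 2. Without any other array they were lost, with an adjusted p by limma of up to 0.0821 and 0.0977.

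Other parts of lipid metabolism leaned in different directions. Of 18 genes of fatty acid supply and storage, Plin3, which coats lipid droplets, was higher (4.15, adjusted p 0.0351 by limma) with the opposite sign under quantile normalization and median centring. Its call held without HP replicate 4 and was lost without any other array (adjusted p of up to 0.0903). Fabp4, next by p, differed by 2361 millionths (standardized difference 2.63, adjusted p 0.089 by limma). All its HP arrays lay above all control arrays, against 7.09% of all probe sets. It was called higher under quantile normalization (adjusted p 0.0236 by limma) and under median centring (0.0217). The shares called higher were 2.46% of the probe sets that varied and 0.251% of all. In this list 8 were below 0 and the median was 0.34. None of the 12 measured known targets of Ppara outside the oxidation enzymes passed, although Acsl1 is on both lists. Of these 12, 4 were below 0, with a median of 0.23, and those with the smallest p, Me1 and Ucp2, had -1.15 and 1.15. None of 8 genes of malonyl-CoA and AMP kinase control (median 0.082), 10 nuclear receptors and partners (median -0.074) and 3 ketone body genes (median -1.30) passed. Within these 3 lists 4 genes had all HP arrays below all control arrays, against 5.81% of all probe sets. They were Prkaa2, a catalytic subunit of AMP kinase (-2.49), and Mlycd, which breaks down malonyl-CoA (-2.51). The others were Hnf4a, a receptor of tubule cells (-2.67), and Acat1, a thiolase of ketone bodies (-2.41). The other catalytic subunit, Prkaa1, had all HP arrays above all control arrays (1.95), against 7.09% of all probe sets.

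Markers of the proximal tubule leaned the same way as the oxidation genes. Of 19 proximal tubule markers measured of 20, 16 were below 0 with a median standardized difference of -1.42, and Slc27a2, which is also among the peroxisomal enzymes, was the only one called lower. Slc34a1, the sodium phosphate cotransporter, named because it defines the segment, had -1.50. The study lists Slc34a1 as downregulated at another probe set and describes it as responsive to dietary phosphate, so that it is no marker independent of the diet. Slc13a3, a dicarboxylate carrier, had -3.04. The summed value of the 19 lay between -229.5 and 292.1 millionths from the control mean on the control arrays and between -416.6 and -47.7 on the HP arrays, and none of them was at 0. Their part in the lower values of the oxidation genes was not tested.

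Calls among the markers of other cells were nearly all in 3 lists. Over all probe sets 2.95% were called higher, and 5.61% in the fit with 1 probe set per gene. Of 10 macrophage markers 8 were higher, among them Ptprc and Aif1 (standardized differences 6.20 and 6.13), with summed values between -706.1 and 1402 millionths on the control arrays and between 12012 and 21768 on the HP arrays. Of 8 fibroblast markers 5 were higher, led by Col3a1 (8.00), with summed values between -1523 and 663.6 against 7858 to 10242. Of 10 tubular injury markers 6 were higher, led by Spp1 (9.42), with summed values between -54777 and 50915 against 663440 to 923140. Their part in the higher values of Acsl4, Acsl5 and Cd36 was not tested. None of 5 adipocyte, 6 skeletal muscle, 4 erythroid, 4 podocyte, 7 endothelial, 6 thick ascending limb and 4 intercalated cell markers was called, although all 4 of the erythroid cells (median -1.84) and all 4 of the intercalated cells (median -1.55) were below 0. In the remaining list, 1 of 8 distal tubule and collecting duct markers was higher.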

How the data were processed

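Kidney RNA was hybridized to Affymetrix Rat Genome arrays, and the authors deposited values on a log scale (treated as log2, since no base is stated). They quantified the scans with DFW over all 8 arrays together. Versions of these tools are not given in the sources used here. The values were used as deposited. The 57 Affymetrix control probe sets were left out, and the other 31042 were fitted with limma 3.58.1 in R 4.3.3 (lmFit and eBayes, HP minus control, no covariates), with Benjamini-Hochberg adjustment at 0.05. Rank products followed the methods of the study (16 pairs of arrays, 1000 permutations, FDR under 0.05), over all 31099 probe sets. Exact two-sided permutation tests used 70 arrangements. Other steps used Python 3.11.15 with numpy 2.4.6, pandas 2.3.3 and matplotlib 3.10.9. The tests were checked on simulated data.

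Symbols came from GEO's platform annotation, in which 20826 probe sets had 1 symbol, 436 had several and 9780 had none. Genes of the related and marker lists entered with their probe set of highest mean. Promoters came from RefSeq. Members, lists and tests were chosen with earlier results of these data known, so that lists are described by counts and medians without set tests.

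Values on all arrays are given for called members, for members that the study lists under its enriched terms, and for the probe set with the smallest p of each role. Values of Acaa2, and ranges of other members without overlap and of Cd36, were added after they were seen. The alternatives were quantile normalization, median centring, removal of the dimmest 25% of probe sets, 1 probe set per gene, a replicate block, weighted arrays, limma with trend and robust options or unmoderated, and removal of each array in turn.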

Additional observations from a re-analysis of the deposited data

Results flagged for a closer look

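In each diet group of each of the 63 probe sets, the gap between the most extreme array and the next was divided by the range of the group, which made 126 groups of 4 arrays. The ratio was above Dixon's critical value for 4 samples in 7 of them, and chance alone exceeds it in about 1 group in 20. In the control group, replicate 4 was far below the others for Acaa2 1386880_at (0.865), the mitochondrial thiolase, and replicate 3 was far below them for Eci1 1370961_at (0.853), the isomerase. Replicate 4 was far above the other controls for Acsl3 (0.873), a synthetase, and replicate 1 for Fabp3 (0.830), a binding protein. In the HP group, replicate 2 was far below the others for Hadh 1370237_at (0.873), replicate 3 was far below them for Eci2 (0.843), and replicate 3 was far above them for Ppargc1a 1393743_at (0.897).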

How the results depend on the processing

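The 2 calls higher, Acsl4 and Acsl5, and the count of 0 lower held with array weights, with trend and robust moderation, without the dimmest 25% of probe sets and with the median deviation of each array removed. With 1 probe set per gene, 1 member was called higher (Acsl4) and 1 lower (Etfb, mitochondrial). Without moderation 1 was called higher (Acsl5), and median centring called 0. Rank products called 2 higher (Acsl4, and Acsl5 at 1386926_at in place of 1397375_at) and 5 lower. Of the 5, 1 was mitochondrial (Acaa2) and 1 peroxisomal (Pecr). Quantile normalization called 1 higher (Acadl, mitochondrial) and 20 lower. Of the 20, 8 were mitochondrial and 4 peroxisomal. Without 1 array at a time, the count higher was 0 to 1, the count lower was 0 to 1 and the mitochondrial count lower was 0 to 1. The calls gained were Cd36 higher and Acads lower without control replicate 4, Hadh lower without control replicate 2 and Fabp3 lower without HP replicate 4. Without control replicate 1 and HP replicate 2 together, a choice made after seeing the data, 0 were called higher. The cause of these changes was not tested, except that settings with fewer arrays have fewer degrees of freedom.

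Whether replicate numbers pair the arrays of the diets was not settled, since the labels name no pairs and the correlations were weak. Same-numbered arrays had correlated deviations of 0.121, 0.0887, 0.0626 and 0.00148, and the other pairs lay between -0.165 and 0.0842. HP replicates 1 to 3 correlated best with the control array of their own number, and HP replicate 4 with control replicate 3 (0.0705). With the replicate number as a block, 2 were called higher and 0 lower, and of the 6 further genes called, Pex10, Pxmp2, Plin3 and Hao1 were lost (adjusted p 0.0858 to 0.109). Without moderation Slc27a2, Pxmp2 and Hao1 were lost (0.0638 to 0.0688).

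The differences of all 63 probe sets, and of the 6 further genes called, were followed over these settings. Among those not called with all arrays unless named, signs turned as follows, in millionths. Under median centring they were -58.0 and -57.1 for Acot2, -60.3 for Acsl3, -43.1 for Acsl5 1397375_at (called as deposited), -52.1 for Cd36, -56.7 for Cpt1a, -32.6 for Cpt1b, -57.7 for Fabp1, -60.4 and -60.9 for Hadha, -60.6 for Hadhb, -61.0 for Phyh and -57.8 for Plin3 (called as deposited). Under quantile normalization they were 287.8 for Acadl, 158.3 for Acot2 1384115_at, -401.3 for Acot2 1388210_at, -692.0 and -489.9 for Acsl5, -507.9 for Cd36, -131.7 for Cpt1b, -101.0 for Fabp1, -50.0 for Hadha, -75.1 for Hao1 and -206.5 for Plin3 (both called as deposited), and 95.7 for Ppargc1a 1370089_at. Array weights gave 0.048 for Acot1. Without control replicate 1 and HP replicate 2 together they were 4.96 for Acot1, 3.68 for Acot2, 0.0077 for Acox2, 14.2 for Acsl1 1370939_at, 0.524 for Cpt2, 0.213 for Crot 1368426_at, 2.83 for Ehhadh and 0.137 for Slc25a20. Without 1 array at a time the differences ranged from -0.449 to 1.12 for Hadhb, -0.164 to 1.49 for Hadha, -5.00 to 2.43 for Acot2, -8.05 to 17.5 for Cpt1a, -5.37 to 0.436 for Crot, -0.851 to 0.162 for Acox2, -0.148 to 0.235 for Phyh, -3.72 to 2.99 for Acot1 and -5.12 to 0.759 for Ppara.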
